A study of Mus musculus with 12 samples.

Results

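The transcriptomes of elongated spermatids (ES) and round spermatids (RS) were compared in male mice homozygous for a catalytically inactive Tent5c allele, Tent5c dcat/dcat. TENT5C is a cytoplasmic poly(A) polymerase, an enzyme that adds adenosines to the tails of finished mRNAs, and the dcat allele leaves the protein without that activity in every tissue, not in germ cells alone. The comparison follows mRNA levels through spermatid elongation in animals that lack the activity. It used 3 RS and 3 ES libraries of nanopore direct RNA sequencing, which reads native poly(A) RNA molecules from the 3′ end, and each library was a pool of mRNA from 3 adult mice on a C57BL/6 background. Spermatids were sorted as haploid cells by Hoechst staining and by light scatter after collagenase had removed interstitial cells, so that a library holds spermatids of several developmental steps. The control series of 3 RS and 3 ES libraries from Tent5c wt/wt mice entered only the test of a difference between genotypes. Of 12114 contigs (annotated transcripts and repeat elements) in the count table, the 10443 with at least 10 counts in at least 2 libraries of RS or of ES were tested. They comprised 418 repeat elements and 9873 transcripts with a gene symbol, of 6318 genes.

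After meiosis, round spermatids transcribe the genes of sperm assembly, and transcription stops as the nucleus elongates and histones give way to transition proteins and then to protamines. Later protein synthesis draws on mRNAs that were made earlier and stored. In the same period the acrosome spreads over the nucleus, the flagellum gains outer dense fibres, a fibrous sheath and a mitochondrial sheath, and most of the cytoplasm is shed.

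The sorted cells carried the markers of their labels. The 7 genes fixed as markers of elongating spermatids took 4.15% ± 1.12 of RS counts and 18.8% ± 0.596 of ES counts (SD, n = 3), and all 9 of their contigs were called higher in ES. The 6 round spermatid marker genes took 0.247% ± 0.00413 of RS counts and 0.0740% ± 0.00451 of ES counts, with 7 of 10 contigs called lower (4 without ES replicate 3). Markers of somatic testis cells also moved with stage. Of the genes listed for each, 6 of 11 for Leydig cells, 9 of 17 for Sertoli cells and 2 of 8 for macrophages had a contig in the table, whereas those listed for myoid, endothelial and erythroid cells had none. Together they held 37, 75 and 133 counts in the RS libraries (0.00503% to 0.0139%) and 321, 488 and 990 in the ES libraries (0.0563% to 0.139%). Vim, among the Sertoli cell genes, was at 0 in RS replicates 1 and 2, and no marker with a contig was at 0 in all 3 libraries of a stage. Their part in the results below was not tested. Library totals ran from 604637 to 958704 counts in RS and from 502689 to 714163 in ES, so that 3 counts corresponded to 2.43 to 3.88 CPM (counts scaled to library size) in RS and 5.16 to 7.57 CPM in ES after scaling.

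Levels are given as CPM after TMM scaling, which aligns the bulk of contigs between libraries, and changes as log2 of ES over RS from edgeR's quasi-likelihood test, called at an adjusted q (Benjamini-Hochberg) of at most 0.05. Of the 10443 contigs, 4306 were called (41.2%). In ES, 2660 were higher (25.5%), with a median log2 change of 2.06, and 1646 were lower (15.8%), with a median of -1.20. Among the calls, 1408 contigs rose at least 4-fold and 101 fell at least 4-fold. The count filter was passed in both stages by 1809 of the contigs called higher and 1070 of those called lower. The others passed in a single stage, so these counts of large changes are a description. Values of all 3 ES libraries lay outside the range of the RS libraries for 54.3% of contigs tested, and this held for 2540 of the contigs called higher and 1618 of those called lower. The paper reports that RS and ES cells came from the same mice, but the main fit left pairing out. In that fit the lower calls rested more on single libraries. They numbered 757 without ES replicate 2 and 550 without ES replicate 3. There were 2718 when the replicate number, taken to pair RS and ES libraries, entered as a block. The median log2 change of all contigs was -0.18, and scaling by total counts alone moved it by -0.68 to -0.86. On that scale 1876 contigs were called higher and 4625 lower, so that 28.9% of calls were upward instead of 61.8%, and 64 of the contigs called higher had a negative value. All changes are therefore relative to the bulk of each library's mRNA. Bulk counts cannot tell fewer cells with an mRNA from less of it in each cell, and p-values measure the spread between these pooled libraries.

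The largest block of the ES transcriptome was the protamines and transition proteins, small basic proteins that package sperm DNA. These 5 genes made up 2.75%, 4.11% and 4.92% of counts in the RS libraries and 18.1%, 18.6% and 17.4% in the ES libraries. The groups did not overlap, which gives an exact two-sided permutation p of 0.1, the smallest that 3 against 3 libraries allow. All 6 of their contigs rose, with a median log2 change of 2.83. Prm1, which encodes protamine 1 (chr16:10796326-10796886 of GRCm38, minus strand), was at 8416, 12088 and 14951 CPM in RS and at 102302, 98007 and 84670 CPM in ES. No RS library reached the ES range, and the change was 3.01 ± 0.191 (SE, q = 1.69e-05). Prm2 changed by 2.82 and Prm3, the gene between Prm2 and Tnp2 on chromosome 16, by 2.85. Tnp1, for transition protein 1, was at 4837, 8014 and 8610 CPM in RS and at 47622, 55594 and 47230 CPM in ES, a change of 2.81 ± 0.199 (q = 1.69e-05). Tnp2 changed by 2.77. In RS the first library was the lowest for each of these 5 genes.

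**Figure D1:**
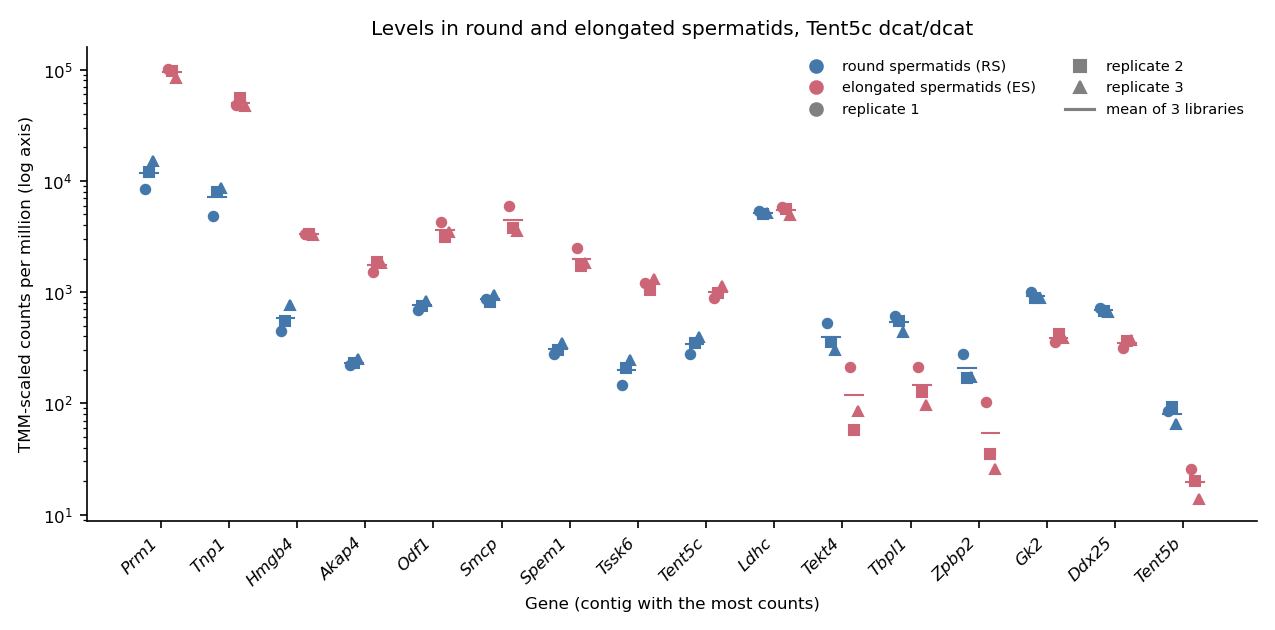
Level of 16 genes in each library (TMM-scaled CPM, log axis), RS in blue and ES in red, with replicates 1, 2 and 3 as circles, squares and triangles and the mean as a line. The 3 ES libraries sit above the RS libraries from Prm1 to Tent5c, overlap them for Ldhc and sit below them from Tekt4 to Tent5b.

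Many postmeiotic genes carry close to their start a cyclic AMP response element (CRE), whose full form is TGACGTCA and which the spermatid regulator CREM can bind. The bases upstream of 5 called genes are shown because they rose together and share such letters. Each is 150 bases of RefSeq sequence (GRCm38.p6) ending just before RefSeq's annotated start, 5′ to 3′ on the gene's strand, with the match to TGANNTCA in capitals.

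Prm1, chr16:10796824-10796973, minus strand: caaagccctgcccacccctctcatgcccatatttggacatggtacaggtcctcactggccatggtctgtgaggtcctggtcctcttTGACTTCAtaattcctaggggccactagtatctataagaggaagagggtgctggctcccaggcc
Tnp1, chr1:73015900-73016049, minus strand: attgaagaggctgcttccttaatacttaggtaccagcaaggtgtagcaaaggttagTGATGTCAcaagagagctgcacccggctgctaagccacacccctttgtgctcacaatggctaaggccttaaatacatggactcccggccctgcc
Prm3, chr16:10790915-10791064, minus strand: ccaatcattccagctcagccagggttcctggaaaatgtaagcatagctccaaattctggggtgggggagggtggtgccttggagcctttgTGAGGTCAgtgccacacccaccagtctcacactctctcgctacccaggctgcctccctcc
Akap4, chrX:7067365-7067514, plus strand: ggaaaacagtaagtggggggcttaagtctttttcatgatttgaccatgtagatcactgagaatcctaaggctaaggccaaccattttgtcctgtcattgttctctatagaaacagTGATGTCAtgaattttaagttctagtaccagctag
Znrf4, chr17:56512484-56512633, minus strand: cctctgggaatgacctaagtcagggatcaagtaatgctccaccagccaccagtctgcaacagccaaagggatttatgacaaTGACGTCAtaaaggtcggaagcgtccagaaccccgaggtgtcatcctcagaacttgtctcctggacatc

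The matches begin 64 (Prm1), 94 (Tnp1), 60 (Prm3), 35 (Akap4) and 69 (Znrf4) bases before the RefSeq start, and the same window of Prm2 and of Tnp2 holds none. Of the genes shown above, only Prm3 has a counted GENCODE transcript that begins at exactly the RefSeq start. For Prm1 and Tnp1 the counted transcripts begin further upstream. The 3′ part of the window, and for Prm1 most of the match, therefore lies inside the counted transcript. TGANNTCA, which includes the full CRE and reads alike on both strands, was chosen after these sequences had been seen. Over 250 upstream bases it occurs in 13.5% of 27025 mouse genes with a RefSeq promoter. Among the tested genes with such a promoter, each taken by its contig with the most counts, it occurs in 217 of 1053 called higher (20.6%), 125 of 1060 called lower (11.8%) and 332 of 2837 not called (11.7%). The full TGACGTCA occurs in 1.77% of all genes, 3.99% of those higher, 3.11% of those lower and 3.56% of those without a call, and the CRE half-site TGACG, on either strand, in 31.1%, 29.9% and 32.2% of the last 3 groups. These are counts of letters in a window and were not tested.

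Among 17 contigs of histone variants and remodelling factors, 9 rose and 2 fell (1 without ES replicate 3, H3f3a being lost), beside 25.5% and 15.8% over all contigs, and the median log2 change was 0.82. By gene 7 of 11 rose and 2 fell, and with total counts 7 contigs were higher and 6 lower. H2al2a, a histone variant that opens nucleosomes for transition proteins, was at 186, 266 and 331 CPM in RS and at 2222, 2296 and 1776 CPM in ES, a change of 3.00 ± 0.223 (q = 1.69e-05). H1fnt, a spermatid linker histone, rose by 2.56 and Hmgb4, a high-mobility-group protein of spermatids, by 2.49. For Hmgb4 the ES libraries lay between 3286 and 3331 CPM, above RS libraries of 444, 548 and 765 CPM. Hils1, a linker-histone-like gene that the counts of this list leave out, was at 565 to 725 CPM in RS and 2316 to 3019 CPM in ES (2.09). The reader of histone marks Cdyl (2.05) and the remodeller Chd5 (1.41) were higher too. Chd5 was not called with total counts, at 0.72. Genes that act before or during histone removal did not move alike. Brdt, the bromodomain protein needed for it, was at -0.02 (q = 0.943) and H3f3b, for histone H3.3, at -0.09 (q = 0.706), while H2afz, for the variant H2A.Z, fell from 548 to 722 CPM to 271 to 376 CPM (-1.05 ± 0.192, q = 0.00149). Psme4, the proteasome activator that clears acetylated histones, was at 0.82 (q = 0.0369) with overlapping groups, and its call held in 1 of the 6 fits that left out a library (q = 0.0634 without RS replicate 1, 0.122 without RS replicate 2, 0.0748 without RS replicate 3, 0.113 without ES replicate 2 and 0.0688 without ES replicate 3).

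The sperm tail is given by structure, and differences between structures were not tested. Over all contigs 25.5% were higher and 15.8% lower. Outer dense fibres are the stiff columns around the axoneme, and 10 of their 15 contigs rose with none lower (median 1.36), or 6 and 3 with total counts. Taking each gene by its contig with the most counts, 4 of 6 genes rose and 2 were not called (median 0.73). Odf1, for the main fibre protein, which also ties the tail to the head, was at 693, 742 and 839 CPM in RS and at 4292, 3154 and 3472 CPM in ES. The change was 2.26 ± 0.162 (q = 1.69e-05) and the groups stood far apart. Odf2, the other principal fibre protein, was at 224 to 456 CPM in RS and 805 to 1042 CPM in ES (1.56 ± 0.249, q = 0.00066). In the fibrous sheath, the scaffold of the principal piece, 10 of 20 contigs rose and 3 fell (median 1.24), or 8 and 7 with total counts, and by gene 5 of 8 rose and 2 fell. Akap4, its most abundant protein, was at 220, 230 and 248 CPM in RS and at 1530, 1857 and 1816 CPM in ES (2.90 ± 0.160). Cabyr, a calcium-binding sheath protein, rose by 2.53, Ropn1 (ropporin) by 1.42, Akap3 by 1.34 and Spa17 by 1.28. In the same list Fsip1 fell by 1.29 on the log2 scale, as did Ropn1l by 0.64. The Ropn1l call was lost without ES replicate 2 (q = 0.0567) or ES replicate 3 (q = 0.0501), and without ES replicate 3 only 1 of the 20 contigs was lower.

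Tektins are filaments inside the axonemal doublets. Of their 11 contigs, 4 were lower and 1 higher, with a median of -1.02. Counts of calls in this paragraph stand beside 25.5% higher and 15.8% lower over all contigs. Tekt3 fell from 437, 343 and 336 CPM to 162, 184 and 139 CPM (-1.20 ± 0.203, q = 0.00095). Tekt4 was at 523, 354 and 301 CPM in RS and at 211, 58.0 and 86.0 CPM in ES, and Tekt1 at 689, 366 and 285 against 278, 144 and 153 CPM. In both stages replicate 1 held most of these transcripts, and the groups did not overlap. Their changes were -1.73 for Tekt4, -1.22 for Tekt1 and -1.02 for Tekt2. The calls depended on single libraries: Tekt1 had q = 0.117 without ES replicate 2 and 0.135 without ES replicate 3, Tekt2 0.0631 and 0.0900, and Tekt4 0.0605 without ES replicate 3, so that the lower count was 2 without ES replicate 2, 1 without ES replicate 3 and 7 without RS replicate 1. With the replicate block 7 tektin contigs were lower. Tekt5, the only one called higher, went from 25.9 to 46.2 CPM to 61.9 to 116 CPM (1.17 ± 0.324, q = 0.0144), and was not called without RS replicate 2 (q = 0.0558) or with total counts (0.47). Of 79 contigs of axonemal dyneins, radial spokes and CFAP proteins, the motor and spoke parts of the axoneme, 31 were lower and 3 higher (median -0.83). There were 20 lower without ES replicate 2, 17 without ES replicate 3 and 44 with the block. The higher contigs numbered 1 without RS replicate 2, 5 without ES replicate 1 and 6 with the block. Cfap52 was at 229, 204 and 151 CPM in RS and 74.1, 45.4 and 60.2 CPM in ES (-1.69 ± 0.267, q = 0.00064), and Rsph6a, a radial spoke head protein, changed by -1.63. Cfap206 and Cfap36 changed by -0.83 and -1.16.

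The mitochondrial sheath wraps the midpiece. Of its 29 contigs 18 rose and 4 fell (median 1.66), several of them isoforms of the same genes. Over all contigs 25.5% were higher and 15.8% lower. By gene 5 of 12 rose, 4 fell and 3 were not called, with a median of 0.30. Smcp, for a cysteine-rich protein of the outer mitochondrial membrane, was at 860, 819 and 946 CPM in RS and at 5889, 3754 and 3565 CPM in ES (2.33 ± 0.200, q = 1.9e-05). The first ES library stood above the other two, and all were far from RS. Spata18 rose by 2.55, Spata19, which is needed for midpiece formation, by 2.08, and Tbc1d21 and Armc12 by 1.66 and 1.68. Among the sheath genes that fell were Gk2, a glycerol kinase, from 887 to 998 CPM to 354 to 416 CPM (-1.26 ± 0.156, q = 0.00014), and the outer-membrane channels Vdac2 (-1.34) and Vdac3 (-1.16). Of all 29 contigs, 7 were lower with the block. Gpx4, for the selenoprotein that hardens into the sheath, was at 2241, 1390 and 1298 CPM in RS and at 5213, 2308 and 1673 CPM in ES. These groups overlapped and it was not called (0.90 ± 0.364, q = 0.0687), but it was called with the block (q = 1.35e-05), without RS replicate 1 (q = 0.0315) and without ES replicate 3 (q = 0.0172).

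Head-tail coupling proteins build the joint between the nucleus and the flagellum, the structure that fails in headless sperm. Of 30 contigs, 7 of them of Oaz3, 20 rose and 1 fell (median 2.03), beside 25.5% higher and 15.8% lower over all contigs. By gene 6 of 11 rose, 1 fell and 4 were not called (median 1.47). Hook1, a microtubule linker, was at 111, 144 and 138 CPM in RS and at 576, 724 and 679 CPM in ES (2.33 ± 0.190, q = 1.84e-05). Oaz3, an antizyme whose loss detaches heads, was at 948, 918 and 1090 CPM in RS and at 7195, 3663 and 3164 CPM in ES (2.24 ± 0.274). Spata6, a protein of the connecting piece, rose by 1.77 and Spag4, a SUN-domain protein that binds ODF1, by 1.47. Ccdc42, needed for early assembly of the neck, fell from 156 to 271 CPM to 58.5 to 104 CPM (-1.49 ± 0.291, q = 0.00225). The manchette, the transient microtubule skirt that shapes the head, gave 4 higher and 3 lower of 23 contigs (median -0.11), or 2 higher and 16 lower with total counts (median -0.80). Its largest riser was an Ift172 transcript annotated as a retained intron, from 79.4 to 148 CPM to 640 to 910 CPM (2.79 ± 0.25, q = 2.28e-05). Ccdc38 changed by -1.19. Meig1, which is needed for manchette function, was at 0.29 (q = 0.117), or -0.41 with total counts. Wdr64, a manchette marker outside that list, rose from 19.6 to 34.9 CPM to 126 to 148 CPM (2.26 ± 0.279, q = 0.000142).

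**Figure D2:**
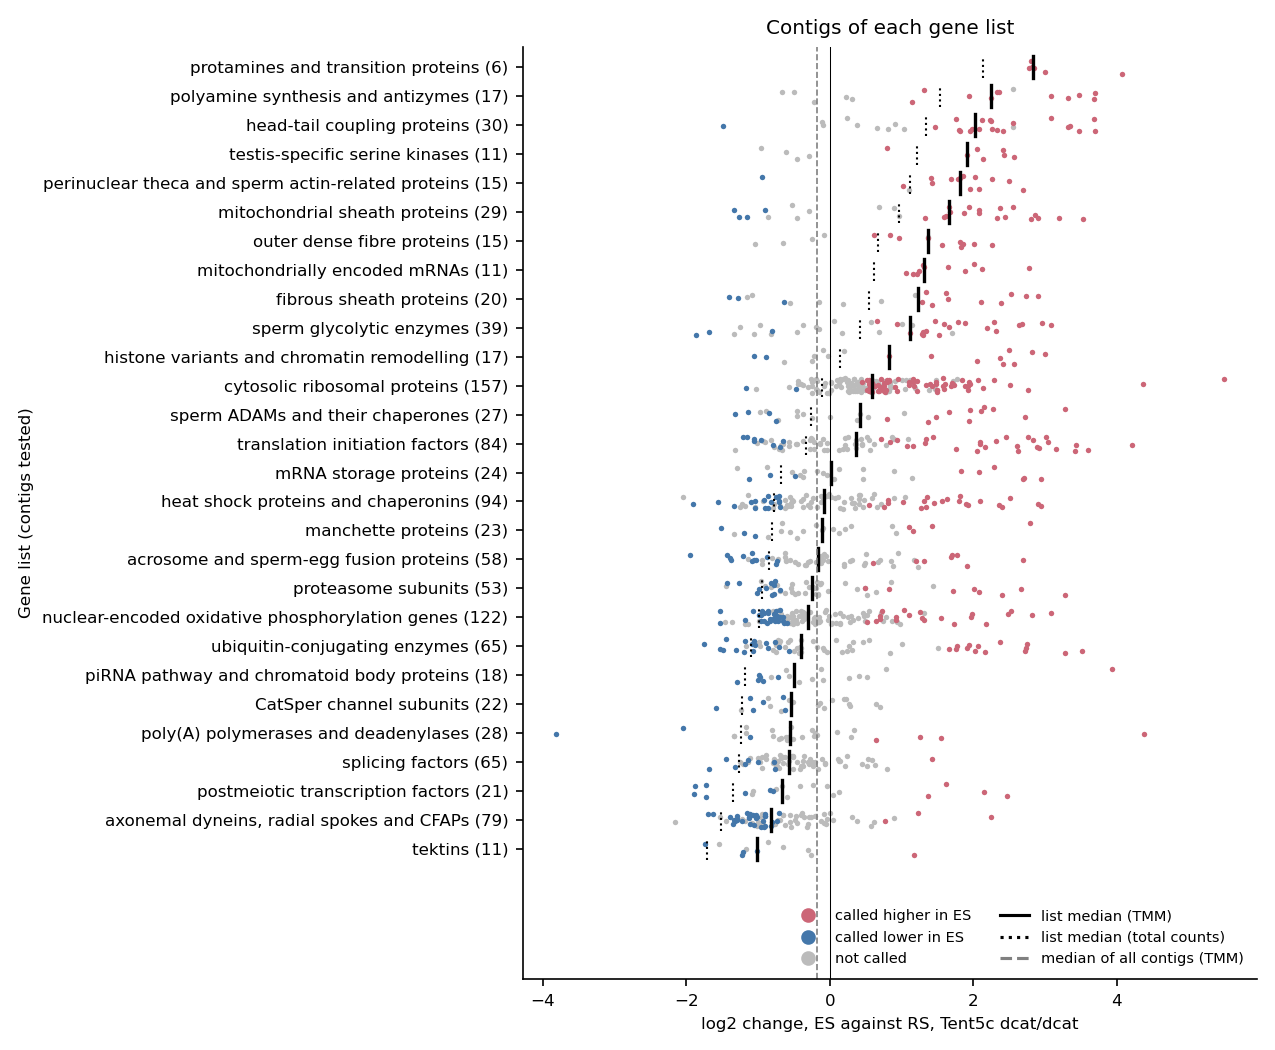
Log2 change of ES against RS for each contig of 28 gene lists, ordered by median, with the number of contigs tested in parentheses. Red and blue points were called higher and lower in ES, grey points were not called, solid ticks are list medians, dotted ticks the medians with total counts, and the dashed line the median of all contigs (-0.18). Protamines and transition proteins lie highest (median 2.83) and tektins lowest (median -1.02).

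Genes of the acrosome, the enzyme-filled cap that meets the egg, moved in both directions. Of 58 contigs 8 were higher and 12 lower (14 and 20 with the block, 8 lower without ES replicate 3), and the median was -0.17. The shares, 13.8% and 20.7%, stand beside 25.5% and 15.8% over all contigs. Zpbp2, a matrix protein that binds the egg coat, had the largest fall: 277, 169 and 173 CPM in RS against 102, 35.3 and 25.8 CPM in ES (-1.94 ± 0.439, q = 0.00493). Acr, for the protease acrosin, changed by -1.44, its inhibitor Spink2 by -1.21, and Spesp1, a protein of the equatorial segment, by -1.39. Spink2 was at 1169 to 1210 CPM in RS and 468 to 579 CPM in ES. The IZUMO family, surface proteins related to the sperm-egg adhesion protein IZUMO1, split. Izumo4 was at -1.38 (q = 0.00111), Izumo3 at 1.2 (q = 0.00155; 0.50 and not called with total counts), the Izumo2 transcript with the most counts, annotated as subject to nonsense-mediated decay, at 1.68 (q = 0.000314), and Izumo1 itself, at 25.9 to 29.2 CPM in RS and 35.3 to 39.6 CPM in ES, was not called (0.49, q = 0.195). Llcfc1, also needed for fusion, rose from 251 to 292 CPM to 652 to 769 CPM (1.32 ± 0.166, q = 0.000163). Crisp2 was not called at 0.48 (q = 0.135), but was with the block (q = 0.0160) and without ES replicate 3 (q = 0.0394).

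The perinuclear theca, the casing between nucleus and acrosome, and the sperm actin-related proteins held 15 contigs, of which 13 rose and 1 fell (median 1.81). Counts of calls in this paragraph stand beside 25.5% higher and 15.8% lower over all contigs. Spem1, which helps to remove cytoplasm from the head, was at 275, 304 and 347 CPM in RS and at 2484, 1718 and 1809 CPM in ES (2.70 ± 0.190, q = 1.69e-05). Actrt2 rose by 2.26, Capza3, an actin-capping subunit, by 1.95, Actl9 by 1.81, and Plcz1, the phospholipase that activates the egg, from 49.0 to 72.9 CPM to 213 to 275 CPM (2.03 ± 0.235, q = 9.83e-05). The exception was Actl7b, from 728 to 1051 CPM to 313 to 526 CPM (-0.95 ± 0.226, q = 0.00678), whose call was lost without ES replicate 2 (q = 0.0643) or ES replicate 3 (q = 0.0528). Its neighbour Actl7a rose by 1.02, though it was not called with total counts (0.33). Testis-specific serine kinases, which act in the last steps of maturation, had 7 of 11 contigs higher and none lower (median 1.91). Tssk6, required for histone removal, was at 145, 208 and 246 CPM in RS and at 1206, 1050 and 1300 CPM in ES (2.57 ± 0.214, q = 1.9e-05). Tssk3 rose by 2.41, Tssk2 by 2.13, their substrate Tsks by 2.05 and Tssk1 by 0.80, though Tssk1 was not called with total counts (0.10). Tssk4 was at -0.28 (q = 0.447) and Tssk5 at -0.61 (q = 0.412).

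For the membrane proteins of fertilization the picture was mixed. Their counts stand beside 25.5% higher and 15.8% lower over all contigs. Sperm ADAM proteins and their endoplasmic reticulum chaperones had 11 higher and 4 lower of 27 contigs, with a median of 0.42, or -0.27 with total counts, and 2 lower without ES replicate 1 and 7 with the block. Calr3, a chaperone for ADAM3, rose from 31.6 to 48.6 CPM to 175 to 194 CPM (2.28 ± 0.251, q = 7.26e-05), and Adam18 fell from 56.9 to 72.9 CPM to 23.1 to 27.8 CPM (-1.33 ± 0.280, q = 0.0034). Adam5 was at 0.38 (q = 0.107), or q = 0.0302 with the block. Adam3, needed for passage into the oviduct, was at 0.80 (q = 0.0128), or q = 0.0584 without RS replicate 3 and 0.657 with total counts (0.10). CatSper subunits, which form the calcium channel of the tail, had no contig higher and 6 of 22 lower (median -0.54), while 3 were lower without ES replicate 1, without ES replicate 3 and by DESeq2. Catsper2, a pore subunit, was at 203, 213 and 219 CPM in RS and at 62.5, 55.5 and 91.1 CPM in ES (-1.59 ± 0.242, q = 0.000509), and Catsperz at 767 to 828 against 365 to 477 CPM (-0.93 ± 0.163, q = 0.00117).

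Sperm glycolysis uses testis-specific enzymes anchored to the fibrous sheath. Of 39 contigs of this pathway 20 rose and 3 fell (median 1.12), or 11 and 9 with total counts (median 0.42). The first shares were 51.3% and 7.69%, beside 25.5% higher and 15.8% lower over all contigs. Lower calls numbered 5 without ES replicate 1 and 7 with the block. Gapdhs, the sperm form of glyceraldehyde-3-phosphate dehydrogenase, was at 585, 266 and 402 CPM in RS and at 3130, 1393 and 1611 CPM in ES (2.29 ± 0.341, q = 0.000445). Pgk2, the sperm phosphoglycerate kinase, was at 551 to 643 CPM in RS and 1579 to 1695 CPM in ES (1.47 ± 0.144, q = 3.89e-05), and Pkm rose by 2.96. Pgam2 rose by 0.66, or -0.04 with total counts. Ldhc, the testis lactate dehydrogenase, did not pass the test: 5344, 5042 and 5191 CPM in RS against 5834, 5540 and 4901 CPM in ES (0.06 ± 0.120, q = 0.691; -0.63 with total counts). Both phosphofructokinase genes with a contig in the list fell, Pfkm from 42.7 to 44.6 CPM to 10.3 to 16.2 CPM (-1.68) and Pfkp from 94.0 to 151 CPM to 17.7 to 55.6 CPM (-1.86 ± 0.398, q = 0.00369). Pfkm, with 7, 6 and 6 counts in ES, passed the count filter only through RS, so its fall is a description.

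All 11 mRNAs encoded by the mitochondrial genome rose, with a median of 1.31. Together they were 1.43%, 1.5% and 1.22% of RS counts and 1.85%, 2.47% and 1.86% of ES counts. mt-Co1, for a catalytic subunit of cytochrome oxidase, was at 3708, 3724 and 3001 CPM in RS and at 7619, 9082 and 6675 CPM in ES (1.16 ± 0.151, q = 0.000191), and mt-Cytb rose by 2.12. mt-Nd6, the only one on the light strand, rose by 2.78, with ES libraries of 71.8, 318 and 162 CPM. With total counts 9 of the 11 were called, all higher. The nuclear genes of oxidative phosphorylation gave 21 higher and 30 lower of 122 contigs (17.2% and 24.6%, beside 25.5% and 15.8% over all contigs, median -0.31). The lower count was 18 without RS replicate 2, 16 without ES replicate 2 and 7 without ES replicate 3. The testis isoforms Cox7b2 and Cox8c changed by -1.18 and -0.84. Ndufa13 rose from 155 to 189 CPM to 547 to 639 CPM (1.73 ± 0.176, q = 4.56e-05) and Cycs, the somatic cytochrome c, by 2.48.

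**Figure D3:**
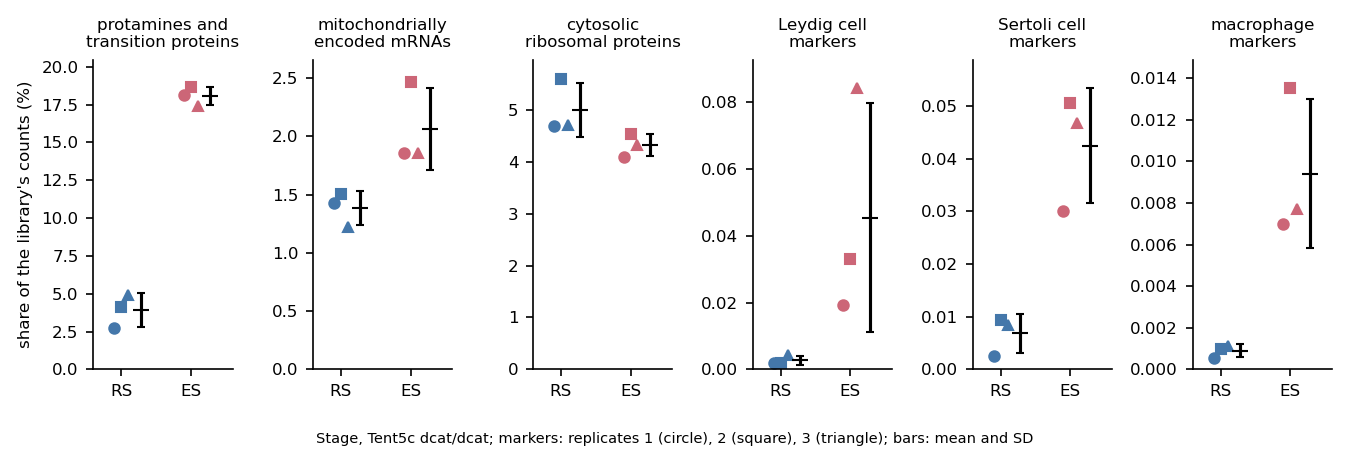
Share of each library's counts (%, each axis from 0) on 3 gene lists and 3 lists of somatic markers, RS in blue and ES in red, symbols marking replicates 1 to 3 and bars the mean and SD (n = 3). Protamines and transition proteins went from 2.75% to 4.92% in RS to 17.4% to 18.6% in ES, while Leydig, Sertoli and macrophage markers together stayed at or below 0.139%.

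Cytosolic ribosomal protein mRNAs had 67 higher and 2 lower of 157 contigs and a median of 0.59, but 15 higher and 32 lower and a median of -0.10 with total counts. The first shares were 42.7% and 1.27%, beside 25.5% higher and 15.8% lower over all contigs. Higher calls numbered 43 without RS replicate 3. The lower calls numbered 1 without each of RS replicate 2 and ES replicates 1, 2 and 3, 4 without RS replicate 3 and 6 with the block. Their share was 5.0% ± 0.521 of RS counts and 4.32% ± 0.216 of ES counts (SD, n = 3). Rps20 was at 1036, 1296 and 1119 CPM in RS and at 2447, 2752 and 2602 CPM in ES (1.18 ± 0.142, q = 0.000125), and Rpl41 rose by 1.11. Of the autosomal copies that take over from X-linked genes in male germ cells, Rpl10l fell from 551 to 605 CPM to 224 to 280 CPM (-1.17 ± 0.172, q = 0.000402), and Rpl39l was at 1569, 1777 and 1308 CPM in RS against 1215, 1314 and 886 CPM in ES (-0.45, q = 0.0724; q = 0.00696 with the block, 0.0293 without RS replicate 3). The X-linked Rpl39 was at 0, 2.59 and 4.05 CPM in RS and at 18.5, 80.7 and 56.7 CPM in ES, a change of 4.36. Rps4x, also on the X chromosome, was at 1.09, 1.29 and 0 CPM in RS and at 27.8, 42.9 and 44.7 CPM in ES, 5.49 ± 0.615 (q = 7.96e-05). Both were near the floor of 3 counts in RS and passed the count filter only through ES, where they had to be higher. Rpl39 could be tested in 4 of the 6 fits with a library left out and was called in each. Those fits also kept it through ES alone, so the calls add no support. Somatic markers rose in the same ES libraries. Ribosomal proteins have many pseudogene copies, to which long reads can also align.

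Translation initiation factors gave 28 higher and 8 lower of 84 contigs, with a median of 0.36, or -0.34 with total counts and -0.11 by gene. Without ES replicate 2 the counts were 12 and 3, without ES replicate 3 14 and 2, and the lower count was 3 without RS replicate 2, 4 without ES replicate 1 and 16 with the block. Eif1, which helps to select the start codon, was at 933, 1047 and 1113 CPM in RS and at 4216, 3128 and 3174 CPM in ES (1.77 ± 0.161, q = 2.46e-05). Eif4e, which binds the mRNA cap, rose by 1.32. Eif4a3, a helicase of the exon junction complex, fell from 94.0 to 118 CPM to 37.0 to 50.5 CPM (-1.22 ± 0.254, q = 0.00323), and Eif3h was at -0.09 (q = 0.685). The proteins that store mRNAs gave 6 higher and 3 lower of 24 contigs (median 0.01, or -0.68 with total counts and -0.37 by gene). These shares, 25% and 12.5%, lay close to the 25.5% and 15.8% over all contigs. Lower calls numbered 1 without ES replicate 2 or ES replicate 3, and 6 with the block. Paip2, which pulls poly(A)-binding protein off tails, rose from 169 to 186 CPM to 504 to 722 CPM (1.82 ± 0.190, q = 5.19e-05). The testis poly(A)-binding protein gene Pabpc2 fell from 604 to 676 CPM to 317 to 381 CPM (-0.84 ± 0.162, q = 0.00216). Pabpc1 was at -0.52 (q = 0.0612), or q = 0.00171 with the block and 0.0387 without RS replicate 1. Ybx2, the germ cell Y-box protein that holds mRNAs silent, was at 967, 623 and 867 CPM in RS and 859, 583 and 729 CPM in ES (-0.18, q = 0.499).

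Tent5c itself (chr3:100468057-100489324 of GRCm38, minus strand) is the gene whose product is inactive in these mice. Its mRNA is still made, and a count per transcript does not read the altered codons. It was at 280, 347 and 397 CPM in RS and at 882, 984 and 1135 CPM in ES, with no overlap (1.55 ± 0.184, q = 0.000111). In wt/wt mice the change was 1.47 ± 0.187, and the difference between genotypes was 0.05 ± 0.260. Its relative Tent5b went the other way, from 84.9, 93.1 and 64.8 CPM to 25.5, 20.2 and 13.8 CPM (-2.04 ± 0.325, q = 0.000663). With 11, 8 and 8 counts in ES, Tent5b passed the count filter only through RS, so its fall is a description. Papolb, a testis-specific cytoplasmic poly(A) polymerase, was at 391 to 429 CPM in RS and 458 to 549 CPM in ES and was not called (0.34 ± 0.162, q = 0.117; q = 0.0430 without ES replicate 1). Of 28 contigs of poly(A) polymerases and deadenylases, 4 were higher and 3 lower (14.3% and 10.7%, beside 25.5% and 15.8% over all contigs, median -0.56). One annotated transcript of Cnot4, a ubiquitin ligase tied to the CCR4-NOT deadenylase, had the largest fall among the named contigs, from 39.2, 15.5 and 13 CPM to 2.31, 2.52 and 0 CPM (-3.81 ± 0.864, q = 0.00507), whereas the Cnot4 transcript with the most counts was at -0.22 (q = 0.756). With 1, 1 and 0 counts in ES, the falling transcript passed the count filter only through RS, where it had to be higher. Its fall is therefore a description. Btg2, which stimulates deadenylation, was at 0 to 1.29 CPM in RS and 9.26 to 25.2 CPM in ES (4.39 ± 0.754, q = 0.00106), below the level of 3 counts in each RS library, and somatic markers rose in the same ES libraries. Since Btg2 passed the count filter only through ES, its rise is a description.

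Postmeiotic transcription factors gave 4 higher and 7 lower of 21 contigs (19.0% and 33.3%, beside 25.5% and 15.8% over all contigs, median -0.67). Tbpl1, the TBP-like factor of round spermatids, was at 609, 548 and 441 CPM in RS and at 213, 126 and 96.3 CPM in ES (-1.88 ± 0.279, q = 0.000431), TBP itself (Tbp) at -1.90 and the TFIIA partner Gtf2a1l at -1.18. Crem, the activator of postmeiotic genes, was at 132, 167 and 140 CPM in RS and 102, 116 and 112 CPM in ES and was not called (-0.41, q = 0.146), while its coactivator Fhl5 rose from 58.8 to 94.0 CPM to 327 to 464 CPM (2.46 ± 0.246, q = 4.21e-05) and Spz1, a helix-loop-helix factor, by 2.15. The piRNA pathway and chromatoid body, the germ granule of round spermatids, gave 1 higher and 6 lower of 18 contigs (5.56% and 33.3%, median -0.51). The lower count was 4 without RS replicate 2 or ES replicate 2 and 3 without ES replicate 3, and the higher count was 3 without ES replicate 1 and 2 with the block. Ddx25, a helicase of the granule, was at 715, 670 and 666 CPM in RS and at 313, 361 and 373 CPM in ES (-0.97 ± 0.160, q = 0.000824). Tdrd6 and Tdrd7, its scaffold proteins, changed by -1.0 and -1.29. The contig called higher was of Tdrkh, a mitochondrial partner of PIWI proteins, from 2.18, 7.76 and 8.10 CPM to 30.1, 121 and 134 CPM (3.94 ± 0.592, q = 0.000472). With 2, 6 and 10 counts in RS, Tdrkh passed the count filter only through ES, where it had to be higher. Its rise is therefore a description, and somatic markers rose in the same ES libraries. Mael was at -0.61 (q = 0.0510), and was called with the block (q = 0.000264), without RS replicate 3 (q = 0.0424) and without ES replicate 1 (q = 0.00362). Polyamine synthesis and antizymes, which set the pool of spermidine and spermine, had 11 of 17 contigs higher and none lower (median 2.24), or 9 and 2 with total counts. Oaz3 supplied 7 of the 17, and by gene 3 of 6 rose and 3 were not called (median 0.73). Azin2, a testis antizyme inhibitor, rose from 40.3 to 60.7 CPM to 245 to 296 CPM (2.37 ± 0.235, q = 4.21e-05), while Odc1, the first enzyme, was at 0.32 (q = 0.280).

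Lists of protein turnover are given beside 25.5% higher and 15.8% lower over all contigs. Proteasome subunits gave 8 higher and 11 lower of 53 contigs (median -0.25; 13 and 17 with the block). The lower count was 6 without RS replicate 1 or ES replicate 2 and 2 without ES replicate 3. Psma6, a core subunit, was at 407, 540 and 565 CPM in RS and at 1519, 1801 and 1642 CPM in ES (1.71 ± 0.171, q = 4.21e-05), and the activator Psme3 and the inhibitor Psmf1 rose by 2.08 and 2.01. Ubiquitin-conjugating enzymes gave 14 higher and 16 lower of 65 contigs (median -0.41; lower 10 without RS replicate 2, 7 without ES replicate 2 and 4 without ES replicate 3). Ube2n rose from 429 to 502 CPM to 1350 to 1660 CPM (1.66 ± 0.156, q = 3.05e-05) and Ube2j1 by 1.93, while the Ube2d3 transcript with the most counts fell by 1.45 on the log2 scale. RING and TRIM ligases gave 42 higher and 13 lower of 111 contigs (median 0.24, or -0.45 with total counts and -0.14 by gene; lower 6 without ES replicate 2, 4 without ES replicate 3 and 23 with the block). Rnf133, a testis ligase of the endoplasmic reticulum, was at 110, 111 and 145 CPM in RS and at 873, 590 and 598 CPM in ES (2.49 ± 0.221, q = 2.24e-05), Rnf138 rose by 2.19, and Trim69 fell by 1.44 on the log2 scale. Ubiquitin-specific proteases gave 11 higher and 3 lower of 45 contigs (median 0.02, or -0.67 with total counts and -0.25 by gene; lower 5 without RS replicate 3, 2 without each of RS replicate 2 and ES replicates 1, 2 and 3, and 8 with the block). Usp12 rose by 2.29 and Usp1 changed by -1.18. Heat shock proteins and chaperonins gave 22 higher and 16 lower of 94 contigs (median -0.08, or 12 higher and 41 lower with a median of -0.77 with total counts; lower 10 without RS replicate 2, 5 without ES replicate 2 or ES replicate 3, and 28 with the block). The testis chaperones Hspa1l (2.36), Dnajb8 (2.51) and Dnajb3 (1.36) rose. Hspa1l was at 162 to 288 CPM in RS and 1012 to 1201 CPM in ES. Hspa2, which acts in meiosis and in nuclear condensation, fell from 620 to 873 CPM to 338 to 433 CPM (-0.90 ± 0.185, q = 0.00302), and Cct4, a subunit of the chaperonin that folds actin and tubulin, by 0.86 on the log2 scale.

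Splicing factors, solute carriers and zinc finger genes had medians below that of all contigs. Counts of calls in this paragraph stand beside 25.5% higher and 15.8% lower over all contigs. The splicing factors gave 1 higher and 8 lower of 65 contigs (median -0.57; lower 5 without RS replicate 2, 4 without ES replicate 2, 2 without ES replicate 3 and 21 with the block). The riser was Snrpd2, from 281 to 418 CPM to 839 to 1044 CPM (1.42 ± 0.188, q = 0.000218), and Snrpc, also a small nuclear ribonucleoprotein, fell from 234 to 366 CPM to 96.3 to 139 CPM (-1.45). Solute carriers gave 15 higher and 16 lower of 96 contigs (median -0.64; 7 higher without ES replicate 3, and lower 8 without ES replicate 2, 9 without ES replicate 3 and 34 with the block). Slc30a4, a zinc exporter, rose from 16.3, 22.0 and 21.1 CPM to 197, 151 and 119 CPM (2.96 ± 0.291, q = 3.94e-05), while the carnitine transporter gene Slc22a21 changed by -1.31. Zinc finger genes gave 18 higher and 27 lower of 136 contigs (median -0.61; higher 12 without RS replicate 2, ES replicate 2 or ES replicate 3; lower 18 without ES replicate 1, 14 without ES replicate 2, 9 without ES replicate 3 and 47 with the block). Zfp706 rose by 3.07 and Zfp646 changed by -1.70. Meiotic spermatocyte markers gave 4 higher and 4 lower of 24 contigs (median -0.47, lower 1 without ES replicate 3 and 8 with the block). By gene 1 rose, 2 fell and 8 were not called. The riser was Syce2 (1.52), with 289 counts in RS and 481 in ES, while Ccna1 had 1303 and 243. Of the 2 spermatogonial marker genes in the table, Uchl1 rose from 5.67 to 7.76 CPM to 32.4 to 55.0 CPM (2.71). With 6, 6 and 7 counts in RS, Uchl1 passed the count filter only through ES, so its rise is a description. Id4, with 52 counts in RS and 26 in ES, was not called. The 18 genes the study discusses, chosen on these samples and so no independent evidence, had 27 of 37 contigs higher and 4 lower (2 without ES replicate 3), with a median of 1.83.

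Beyond the lists, the smallest q among contigs with a gene symbol that fell without overlap belonged to Tcte3, a dynein light chain gene, at 5373, 6165 and 5192 CPM in RS and at 2540, 2843 and 2320 CPM in ES (-1.12 ± 0.135, q = 0.000125). Gkap1, an anchor of cyclic GMP-dependent kinase (-1.34), Kpna2, an importin (-1.88), Tmem97 (-1.26), Hdgfl1 (-1.50), Eid3 (-1.26), March11 (-1.64) and 1700001F09Rik (-1.41) followed. Kpna2 was at 272, 410 and 426 CPM in RS and at 102, 95.9 and 103 CPM in ES. Among the smallest q of the risers, beside the protamine genes, were the ketone body enzyme Oxct2a at 95.8, 123 and 143 against 965, 918 and 867 CPM (2.92 ± 0.194, q = 1.69e-05), the ligase gene Znrf4 (2.27), the defensin gene Defb33 (2.99) and 2610318N02Rik (2.52). Low-abundance contigs with large falls were Zfp608, from 16.8 to 25 CPM to 2.52 to 4.63 CPM (-2.49 ± 0.502, q = 0.00265), Cxxc1 (-2.48), a retained-intron transcript of Abca14 (-2.58) and Zfp189 (-2.47), the last with q = 0.0722 without ES replicate 3. Each passed the count filter only through RS, where it had to be higher, so these falls are a description. Zfp608 had 2, 1 and 2 counts in ES.

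The largest increases were of contigs near or at 0 in RS, among them markers listed for somatic cells. H2-Eb1, a class II antigen-presentation gene, had no count in RS and 8, 10 and 13 counts in ES, at least 6.90-fold higher than a floor of 3 counts in each RS library. Of contigs with a symbol and at least 20 CPM in ES, those with the largest changes after it were Fos (6.28), an early response gene, H2-Aa (6.01) and Cd74 (5.91), partners of H2-Eb1, and Cyp17a1 (5.85), an enzyme of androgen synthesis in Leydig cells. Cd74 was at 1.09, 0 and 1.62 CPM in RS and at 53.2, 124 and 41.3 CPM in ES, and Cyp17a1 at 1.09 to 1.62 CPM against 20.8, 78.2 and 162 CPM. Insl3, the Leydig cell hormone gene, was at 10.9, 9.05 and 21.9 CPM in RS and 150, 202 and 476 CPM in ES (4.25 ± 0.493, q = 9.77e-05), and Ptgds was at 0 to 2.59 against 17.7 to 87.7 CPM (4.63 ± 0.789, q = 0.00101). Clu, of Sertoli cells, changed by 4.24. Of the marker contigs, 1 for Leydig cells and none for Sertoli cells or macrophages passed the count filter in both stages. Contigs that passed only through ES had to be higher there, so their counts are a description. All 6 Leydig cell contigs were called higher (median 4.97), but 2 without ES replicate 2 and 1 without ES replicate 3. H2-Eb1, Fos, Cyp17a1 and Ptgds were among the contigs that no longer had 10 counts in 2 libraries when some ES libraries were left out, and were called in all 4 fits that tested them. Those fits also kept them through ES alone, so the calls add no support. Of 11 Sertoli cell contigs 10 were higher (median 3.69), and both macrophage contigs were (median 4.41). In all, 328 contigs of 234 genes were called higher from a mean below 5 CPM in RS. No contig tested was at 0 in all ES libraries, and the second one at 0 in all RS libraries was a transcript of Nt5c1b with 3, 11 and 12 counts in ES (at least 5.78-fold higher), one of 15 overlapping Nt5c1b contigs among which reads could be divided.

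The X and Y chromosomes, which are silenced in meiosis and stay largely repressed in round spermatids, with multicopy families among the exceptions, differed in their counts. Of 188 contigs on the X chromosome, 46.3% were higher and 8.51% lower, against 24.5% and 16.3% of 9628 on the autosomes, and their median log2 change was 0.56, or -0.12 with total counts. All 8 contigs of the H2al histone family (median 2.53) and all 7 of the Cypt family (median 2.38) rose, and without both families 72 of 173 X contigs were higher and 16 lower (median 0.10, or -0.58 with total counts). Hypm, for a histone H2A-like protein, was at 107, 162 and 168 CPM in RS and 1053, 997 and 1071 CPM in ES (2.84 ± 0.203, q = 1.69e-05). Tmsb4x, for thymosin beta 4, which somatic cells also make, rose by 2.58, while 3 of the 5 Ssxb contigs were lower (median -1.50). Members of these families are near-copies, and how reads were divided among them is uncertain. X contigs were also shorter, with a median of 1050 bases against 2191 on autosomes. On the Y chromosome 10 of 42 contigs were lower, 40 had a negative change, and Tspy-ps (2.13) and Rbm31y (1.91) were higher.

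Short transcripts were more often higher. Over protein-coding contigs split into 5 equal classes by transcript length, 35.6% of the shortest class (median 843 bases) were called higher, against 22.2%, 21.1%, 18.5% and 18.8% of the others. By length of the 3′ UTR, 36.6% of the shortest class were higher, and the middle class (366 to 824 bases) had the fewest higher (15.8%) and most lower (23.1%). The shortest transcripts were also the more abundant, with a median of 51.6 CPM against 24.1 in the longest class, and the share called higher ran from 7.49% in the lowest class of level to 44.5% in the highest. Level and length were not separated in this split. Of 261 protein-coding contigs with 1 exon, 42.1% were higher, against 22.7% of those with more. Non-coding annotations of coding genes were more often higher than protein-coding contigs (23.3%): 39.3% of processed transcripts, 33.1% of those marked for nonsense-mediated decay and 30.9% of retained introns. Among 418 repeat elements of 192 families, 37.6% were higher and 9.09% lower (median 0.24, or -0.45 with total counts). The families differed: 5 of 7 L2 elements, an ancient LINE, were higher, and 5 of 6 RMER2 elements, a long terminal repeat, were lower (median -1.88).

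**Figure D4:**
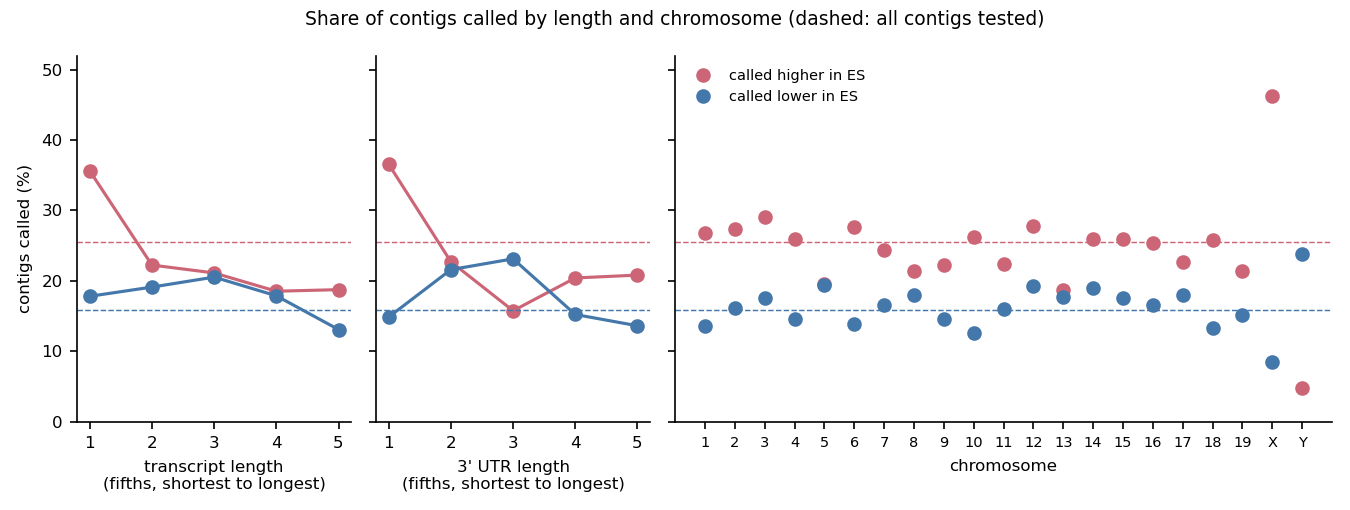
Percentage of contigs called higher (red) and lower (blue) in ES by class of transcript length (5 classes), by class of 3′ UTR length (protein-coding contigs) and by chromosome, with dashed lines at the shares over all contigs tested, 25.5% and 15.8%. The shortest classes by both lengths had 35.6% and 36.6% called higher and the X chromosome 46.3%, and on the Y chromosome more contigs were lower (23.8%) than higher (4.76%).

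Calls on the transcripts of a gene mostly had a single direction. Of 2257 genes with more than 1 contig tested, 734 had calls that were all higher, 583 calls that were all lower, 919 none, and 21 had contigs called in both directions, 16 of them with at least 60 counts on each. In the 4 with the widest gap, the shorter transcript rose and the longer fell. H3f3a, for histone H3.3, showed it most plainly, since both of its transcripts have a coding sequence of 408 bases. The one of 724 bases with a 3′ UTR of 56 bases was at 14.1, 9.05 and 6.48 CPM in RS and at 81.0, 50.5 and 29.2 CPM in ES (2.42 ± 0.464, q = 0.00202). The one of 2841 bases with a 3′ UTR of 2248 bases was at 1118, 1112 and 849 CPM in RS and at 662, 542 and 456 CPM in ES (-0.89 ± 0.188, q = 0.0034; q = 0.0579 without ES replicate 3). Larp1b, related to the mRNA-binding protein LARP1, was at 3.88 to 8.10 CPM in RS and 32.7 to 57.9 CPM in ES for a transcript of 1030 bases (2.73 ± 0.408) and at 141 to 212 against 70.5 to 81.0 CPM for one of 2497 bases (-1.18 ± 0.247). For Sh3glb1, an endophilin of membrane curvature, the transcript of 665 bases rose by 2.72 and that of 3961 bases changed by -0.73 (q = 0.123 without ES replicate 2, 0.114 without ES replicate 3). For 1110032A03Rik the transcript of 1015 bases rose by 2.31 and that of 2082 bases changed by -0.77 (q = 0.083 and 0.111). These transcripts overlap, and how reads were divided between them was not tested.

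Whether elongation changed expression differently without TENT5C activity was tested as the interaction of stage and genotype over all 12 libraries. Of 11831 contigs, edgeR called none (0%), DESeq2 also none, and 170 (1.44%) had an unadjusted p under 0.05. Without any difference a share of about 0.05 would be usual. The test was therefore conservative, and the 1.44% is no added sign of equal change. Of the 4306 contigs called in dcat/dcat mice, 4294 had the same sign in wt/wt mice, and 50 had an unadjusted interaction p under 0.05. The median absolute difference between genotypes over these 4306 was 0.24 with a median SE of 0.465. With that error, and with adjustment over all contigs, differences well above this median could not be detected either. Odf1 changed by 2.18 ± 0.182 in wt/wt mice, a difference of 0.06 ± 0.247, and Prm1 by 3.10 ± 0.274, a difference of -0.12 ± 0.358. For Akap4 the difference was -0.28 ± 0.204, for Smcp -0.12 ± 0.290, for Insl3 -0.03 ± 0.858 and for Ptgds 0.13 ± 1.46. The 5 contigs with a symbol and the smallest interaction p had few counts and an adjusted q of 0.999964: Gml (2.53 in dcat/dcat, -0.72 in wt/wt), which was not among the 10443 contigs, a Gmpr2 retained intron (-3.07 and -0.35), Col20a1 (1.69 and 3.54), Mtx2 (0.45 and -1.34) and Zbtb25 (-0.40 and -2.87). The Gmpr2 transcript had 16, 18 and 20 counts in RS and 1 in each ES library of dcat/dcat mice.

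**Figure D5:**
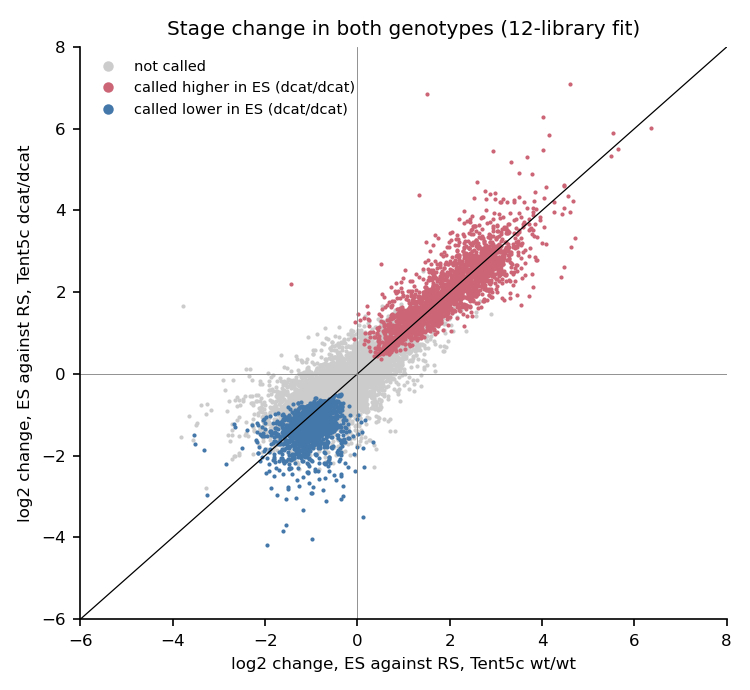
Log2 change of ES against RS in Tent5c wt/wt (horizontal) and Tent5c dcat/dcat mice (vertical) for the 10443 contigs, from the fit over 12 libraries, coloured by the call in dcat/dcat (red higher, blue lower, grey not called), with the line of equal change. Points spread around the line and 4294 of the 4306 called contigs have the same sign in both genotypes. The calls were made on the vertical axis alone, which places called points further from 0 on that axis.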

How the data were processed

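The authors sequenced pooled poly(A) RNA of sorted spermatids by nanopore direct RNA sequencing, aligned reads to GENCODE mouse transcripts and repeats (mm10) with minimap2 (2.20-r1061 in the submitters' processing notes), kept reads with a usable poly(A) tail estimate, and deposited read counts per contig. RNA fragments without a poly(A) tail are not captured, so broken molecules count only by their 3′ part, and reads are divided among overlapping isoforms and near-copies. The deposited tables of the authors' DESeq2 comparisons hold their fold changes and p-values and were not used. For ES against RS in 3 and 3 libraries, these counts went into edgeR 4.0.16 under R 4.3.3 (TMM, quasi-likelihood, two-sided, Benjamini-Hochberg over 10443 contigs, q at most 0.05, checked on simulated counts), and for the interaction with genotype into a fit over 12 libraries. The SE is the log2 change divided by the square root of the F statistic. Replicate numbers came from the labels. Deviations of same-numbered RS and ES libraries from their group means correlated at 0.627, 0.359 and 0.416 over 6842 contigs. Unlike numbers gave 0.258 (RS 2 with ES 3) and 0.271 (RS 3 with ES 2), and negative values wherever replicate 1 was involved. Replicates 2 and 3 are thus hardly told apart. The paper reports that each mouse gave all the germ cell types, so RS and ES cells shared donors. Neither the paper nor the labels state that equal numbers mark pools of the same mice. The main test left pairing out, and the block takes the numbers to pair libraries. Alternatives were DESeq2 1.42.0, RLE and total-count scaling, other filters, the replicate block, sums by gene and leaving out each library.

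Gene lists (those described above and 10 marker lists) and the promoter motif were chosen with earlier results of these data known. Named genes are, by rule, the 10 smallest q and the 5 largest changes in each direction, the most abundant and the smallest q of each list, the genes the study discusses, genes with opposite isoforms, contigs at 0 in a stage, the 5 smallest interaction p, and Tent5c. Hils1, Znrf4's promoter, Hypm, Tmsb4x, Wdr64 and other members of lists were named after their values were seen. Each gene is given by its contig with the most counts unless another is stated. Of transcript contigs, 98.5% were found in the GENCODE annotation used for names, positions and lengths. The promoter table is RefSeq's, GRCm38.p6.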

Additional observations from a re-analysis of the deposited data

How the results depend on the processing

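Calls depended on scaling and on single libraries. The total of 4306 became 6501 with total counts, 2733 where every library had at least 10 counts (4359 contigs tested) and 2674 to 4162 when a library was left out. Contigs higher in ES (2660) were 1370 under that filter. Contigs lower in ES (1646) were 979 by DESeq2, 4625 with total counts and 550 to 1709 with a library left out. They were 2718 with the replicate block, which takes RS and ES libraries of the same number as pairs. With the block 5906 contigs were called in all, including every contig of the 4306, and Gpx4, Crisp2, Pabpc1, Mael, Rpl39l, Adam5 and Usp2 passed in addition among those named. The interaction with genotype gave 0 calls under every alternative run, block included. The ES excess of protamines and transition proteins was 14.1 percentage points, and 0.228 outside each library's 10 most abundant contigs, which hold most of these genes by construction. The ribosomal share fell by 0.683 points and rose by 0.0384 points outside those contigs.

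Over 217 named contigs, 2833 of 2987 alternative values kept direction and side of the threshold, 101 lost the call, 45 gained one and 8 changed sign. These were, with total counts, Meig1 (-0.41), Ldhc (-0.63), Pgam2 (-0.038) and Cox7a2 (-0.67), and with counts summed by gene, Larp1b (-0.23), Sh3glb1 (0.79), H3f3a (-0.61) and 1110032A03Rik (0.52), whose transcripts moved in both directions. Depth limits ES more than RS, since 3 counts there correspond to 5.16 to 7.57 CPM.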
